A study of Mus musculus with 21 samples.

Results

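Oxidative phosphorylation genes encode the subunits of the 5 enzyme complexes with which mitochondria burn fuel and make ATP. The nuclear-encoded genes of these complexes were followed in mouse bone-marrow-derived macrophages by RNA sequencing. Members were the protein-coding rows of the deposited count table whose mouse symbol begins with Ndufa, Ndufb, Ndufc, Ndufs, Ndufv, Uqcr, Cox4i, Cox5, Cox6, Cox7, Cox8 or Atp5, plus Sdha, Sdhb, Sdhc and Sdhd, with a mean estimated count of at least 10 over the 21 libraries. Of 23250 rows in the table, 90 matched the symbols and 88 reached that count. They comprised 36 genes of complex I, 8 genes named Ndufaf that encode complex I assembly factors, 4 of complex II, 8 of complex III, 15 of complex IV (Ndufa4, a complex IV subunit in spite of its name, is counted here) and 17 of complex V. All 88 also passed the filter on low counts used for testing. The 2 genes just below the limit were Cox4i2, with a mean count of 0.71, and Ndufa4l2, with 2.05. Cox8b, the muscle form of a complex IV subunit, and Atpif1, the ATP synthase inhibitor, which the rule does not take by that symbol, were not analysed here. The lowest members above the limit were Cox7a1, with 12.7, and Cox6b2, with 17.1.

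The cells were C57BL/6J macrophages deficient in the mannose receptor (MR), grown from bone marrow for 7 days with supernatant of a cell line that makes the growth factor GM-CSF. One set was left untreated and taken at 0 h. The others received either FcMR, a fusion of the Fc part of human IgG1 with the extracellular part of the MR, or an isotype control protein, each for 4, 12 or 24 h. Each of the 7 groups had 3 libraries, 21 in all. All groups lacked the receptor, and the receptor-deficient state is given for the experiment as a whole and not library by library. FcMR was compared with isotype at the same time. Isotype against untreated holds both the control protein and the hours in culture, which cannot be told apart because no untreated cells were taken later. Nothing in the labels says whether the 3 libraries of a group came from separate animals or cultures, so p-values measure only the spread between these libraries, which may be technical.

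In the respiratory chain, complex I takes electrons from NADH and complex II, succinate dehydrogenase, takes them from succinate, an intermediate of the citric acid cycle. Both hand them by way of ubiquinone to complex III and, through cytochrome c, to complex IV, which reduces oxygen. Complexes I, III and IV pump protons, and complex V, ATP synthase, uses their return to make ATP. Macrophages that meet inflammatory stimuli are known to shift from respiration towards glycolysis and to use succinate differently.

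The libraries held 5532225 to 66729533 estimated counts. Mrc1, the gene of the mannose receptor, had 0 to 11 counts in each library. The summed level of 7 macrophage and leukocyte markers was 20322 to 35723 CPM (estimated counts per 1e6, with TMM library sizes) over all libraries and highest of the lists checked. Most of this sum was Lyz2, with a mean of 21954 CPM in untreated cells. The next of the 7 there, Csf1r, had 820. Sums for other cells were lower. The 5 dendritic cell genes summed to 1331 to 1847 CPM (mostly Itgax, which macrophages also express). The 4 measured lymphocyte genes, 3 fibroblast genes and 2 globin genes summed to at most 20.7. The granulocyte list (Ly6g, S100a8, S100a9, Elane, Mpo, Camp and Ltf) summed to 1144 to 1332 CPM in untreated cells, 256 to 334 in isotype cells at 12 h and 159 to 187 at 24 h, and to 195 to 210 in FcMR cells at 24 h. The 3 mast cell and basophil genes summed to 23.9 to 26.2 CPM in untreated and 5.79 to 6.05 in 24 h isotype cells. In bulk RNA, fewer cells of a type and less RNA per cell cannot be told apart.

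Few respiratory chain genes were called between FcMR and isotype, and more were called between isotype and untreated cells. Over the 7 groups, 49 of the 88 members differed somewhere by the joint test, against 76.3% of the 13468 genes tested (edgeR's quasi-likelihood test, Benjamini-Hochberg adjusted p under 0.05, which is what called means throughout). Without the expression filter the joint test called 47 of the 88, against 44.1% of all genes, so the members' share was not below that of all genes under that setting. In the comparisons of FcMR with isotype, 5 members were called at 4 h, where 17.7% of all genes were called. Of these, 1 was higher and 4 lower, beside 8.62% and 9.13% of all genes. At 12 h it was 1 member, which was higher, against 16.1% of all genes (8.61% higher and 7.49% lower). At 24 h it was 3 members, 2 higher and 1 lower, against 20.9% (11.4% higher and 9.44% lower). For isotype against untreated the members called were 9 at 4 h (35.6% of all genes), 17 at 12 h (41.6%) and 28 at 24 h (42.2%). By direction, 2 members were higher and 7 lower at 4 h, where 20.4% and 15.2% of all genes were. At 12 h 6 were higher and 11 lower, beside 22% and 19.6% of all genes. At 24 h 21 were higher and 7 lower, where 21.3% of all genes were called higher and 20.9% lower. The members' share was below that of all genes in each of the 6 comparisons. At 24 h against untreated cells this did not hold without the expression filter (22 of 88 members, 22.6% of all genes) or fitting only the groups compared (50 of 87, 56.7%). In that comparison more members were called higher than lower.

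Libraries of FcMR and isotype did not overlap for 14 of the 88 members at 4 h, where this held for 29.7% of all genes. The count was 14 at 12 h, beside 35.4% of all genes, and 13 at 24 h, beside 34.4%. Isotype and untreated libraries did not overlap for 16 members at 4 h (42.4% of all genes), 32 at 12 h (61.8%) and 55 at 24 h (62.7%).

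The fitted difference between FcMR and isotype was larger than 0.5 on the log2 scale, a 1.41-fold change, for 10 members at 4 h, 4 at 12 h and 4 at 24 h. It was as large for 27.1%, 23.7% and 28.6% of all genes. The 95% interval of the difference lay wholly within 0.5 of 0 for 38, 45 and 44 of the 88 members at 4, 12 and 24 h, and for 25.3%, 32.0% and 27.6% of all genes tested. For the remaining members the interval reached past 0.5, so these libraries do not bound the change at that size. The median difference over the members was -0.04, -0.11 and -0.04, beside -0.07, -0.02 and 0.01 over all genes. Without isotype 4 h replicate 3 the 4 h median was 0.11, and it lay above 0 under other settings too, among them RLE factors and DESeq2 (0.04 each). Without FcMR 12 h replicate 1 the 12 h median was -0.02.

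**Figure D1:**
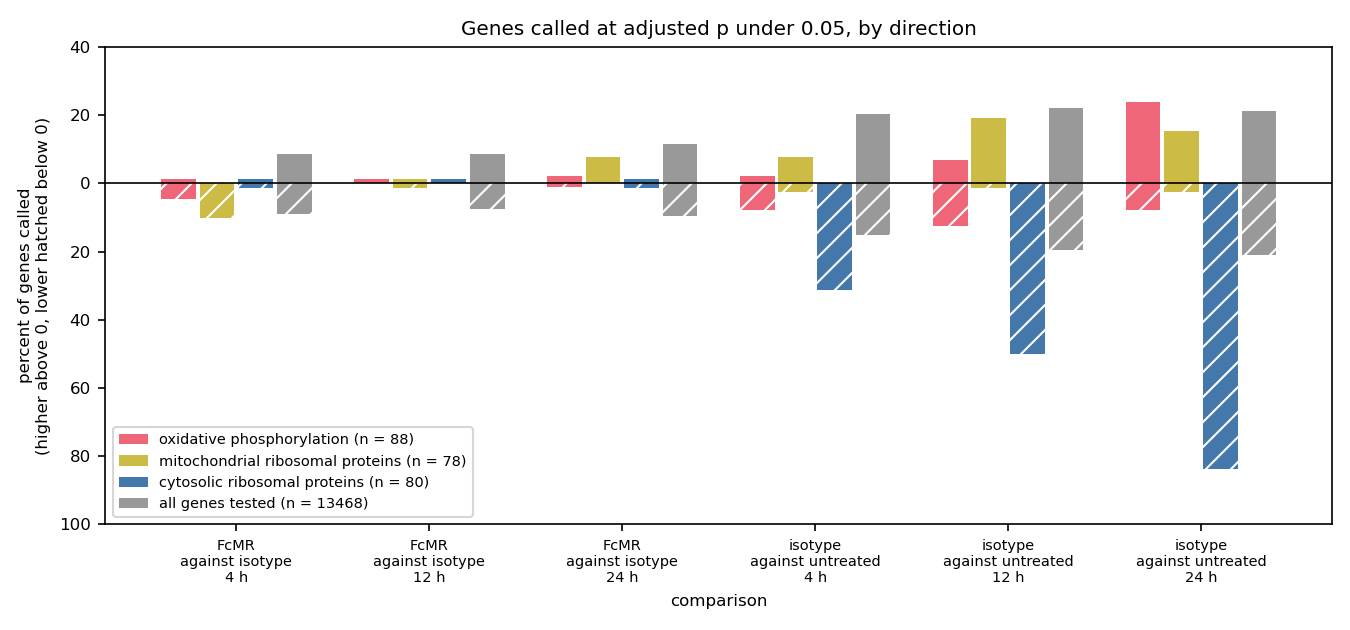
Percent of genes called at adjusted p under 0.05 in each of 6 comparisons (bars above 0: higher, hatched bars below 0: lower) for the 88 oxidative phosphorylation genes, 78 mitochondrial ribosomal protein genes, 80 cytosolic ribosomal protein genes and all 13468 genes tested. The oxidative phosphorylation bars stay below those of all genes except for higher calls of isotype against untreated at 24 h, and the cytosolic ribosomal proteins were called lower in up to 67 of 80 genes at 24 h.

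Other sets of mitochondrial and housekeeping genes set the scale. Of 78 mitochondrial ribosomal protein genes, whose products translate the mitochondrial genome, 8 were called lower by FcMR at 4 h, 1 higher and 1 lower at 12 h, and 6 higher at 24 h. Of all genes 9.13% were called lower at 4 h, 8.61% higher and 7.49% lower at 12 h, and 11.4% higher at 24 h. Against untreated cells, 6 of these 78 were called higher and 2 lower in isotype cells at 4 h. At 12 h it was 15 higher and 1 lower, and at 24 h 12 higher and 2 lower. Of all genes 20.4%, 22% and 21.3% were called higher at these times, and 15.2%, 19.6% and 20.9% lower. Of the 80 cytosolic ribosomal protein genes, 2, 1 and 2 were called between FcMR and isotype at 4, 12 and 24 h, so few FcMR calls were not particular to the members. Against untreated cells this list behaved otherwise: isotype cells had 25 of the 80 called lower at 4 h. The number was 40 at 12 h and 67 at 24 h, none of the list was called higher in isotype cells, and the medians were -0.49, -0.62 and -0.88. Of all genes 15.2%, 19.6% and 20.9% were called lower there. The median of the respiratory chain members over the same comparisons was -0.08, 0.02 and 0.13. These counts and medians describe the lists, and no test was made between them.

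Members differed in how well the libraries measured them. Within groups, the spread of a member (SD of log2 CPM, pooled over the 7 groups) had a median of 0.20, and ran from 0.05 for Atp5b, the catalytic beta subunit of ATP synthase, to 1.13 for Ndufs7, an iron-sulfur subunit of complex I. Across the 88 members this spread went with the GC content of the transcripts, with a Pearson correlation of 0.58 and a Spearman correlation of 0.52. This is a correlation across genes that share the same libraries, not a test. The 22 members richest in GC (55.1% or more) had a median SD of 0.46, and the 22 poorest (48.8% or less) 0.15. Ndufs7 shows the pattern: it had 3.59, 2.16 and 37.1 CPM in the isotype libraries at 4 h and 5.5, 36.7 and 38.2 in the FcMR libraries at 12 h. In each of these groups 1 library stood far from the rest. The GC-rich members lay 0.73 above their group's mean in isotype 4 h replicate 3, 0.70 below it in FcMR 12 h replicate 1 (log2, median over the 22), and 0.58 below it in FcMR 24 h replicate 2, where replicate 3 lay 0.52 above. No GC-rich member was called in any FcMR comparison, where the median standard error of these genes was 0.37 to 0.41. Against untreated cells the GC-rich members had a median difference of -0.56 at 4 h and -0.46 at 24 h, while the GC-poor members had 0.08 and 0.20. The higher calls at 24 h were 1 among the 22 GC-rich members, 5 among the 22 GC-poor and 15 among the other 44. The part of GC content in the direction of the late changes was not tested beyond the offset for GC content, which kept 22 of the 28 calls.

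**Figure D2:**
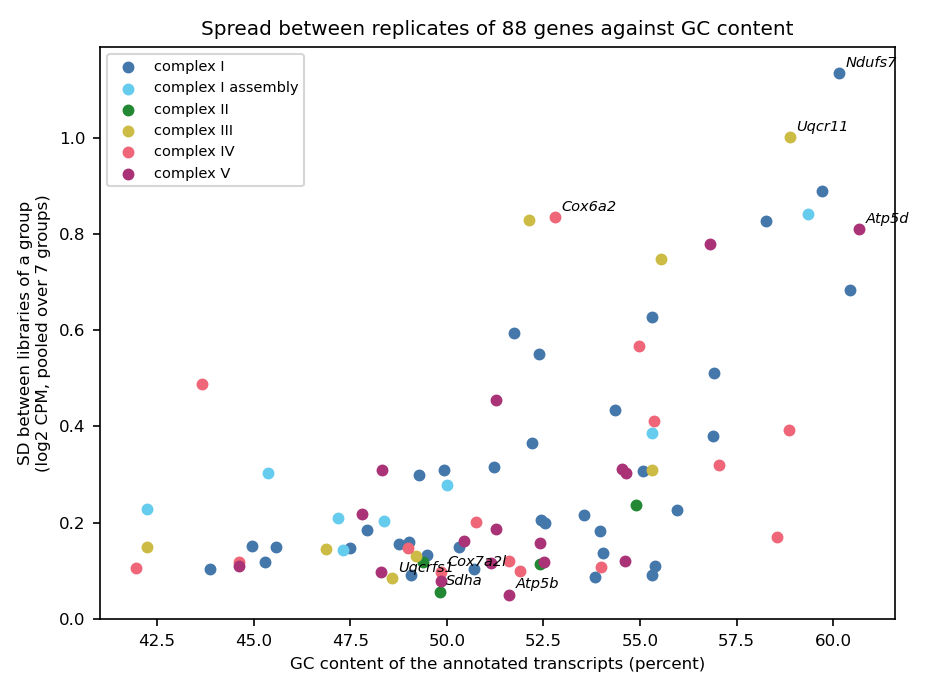
SD between the libraries of a group (log2 CPM, pooled over 7 groups, vertical axis) against the GC content of the annotated transcripts in percent (horizontal axis), 1 point for each of 88 genes, coloured by complex. Spread runs from 0.05 for Atp5b to 1.13 for Ndufs7, and 10 of the 12 genes above 0.6 are among the 22 richest in GC, the others being Uqcrq and Cox6a2.

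**Figure D3:**
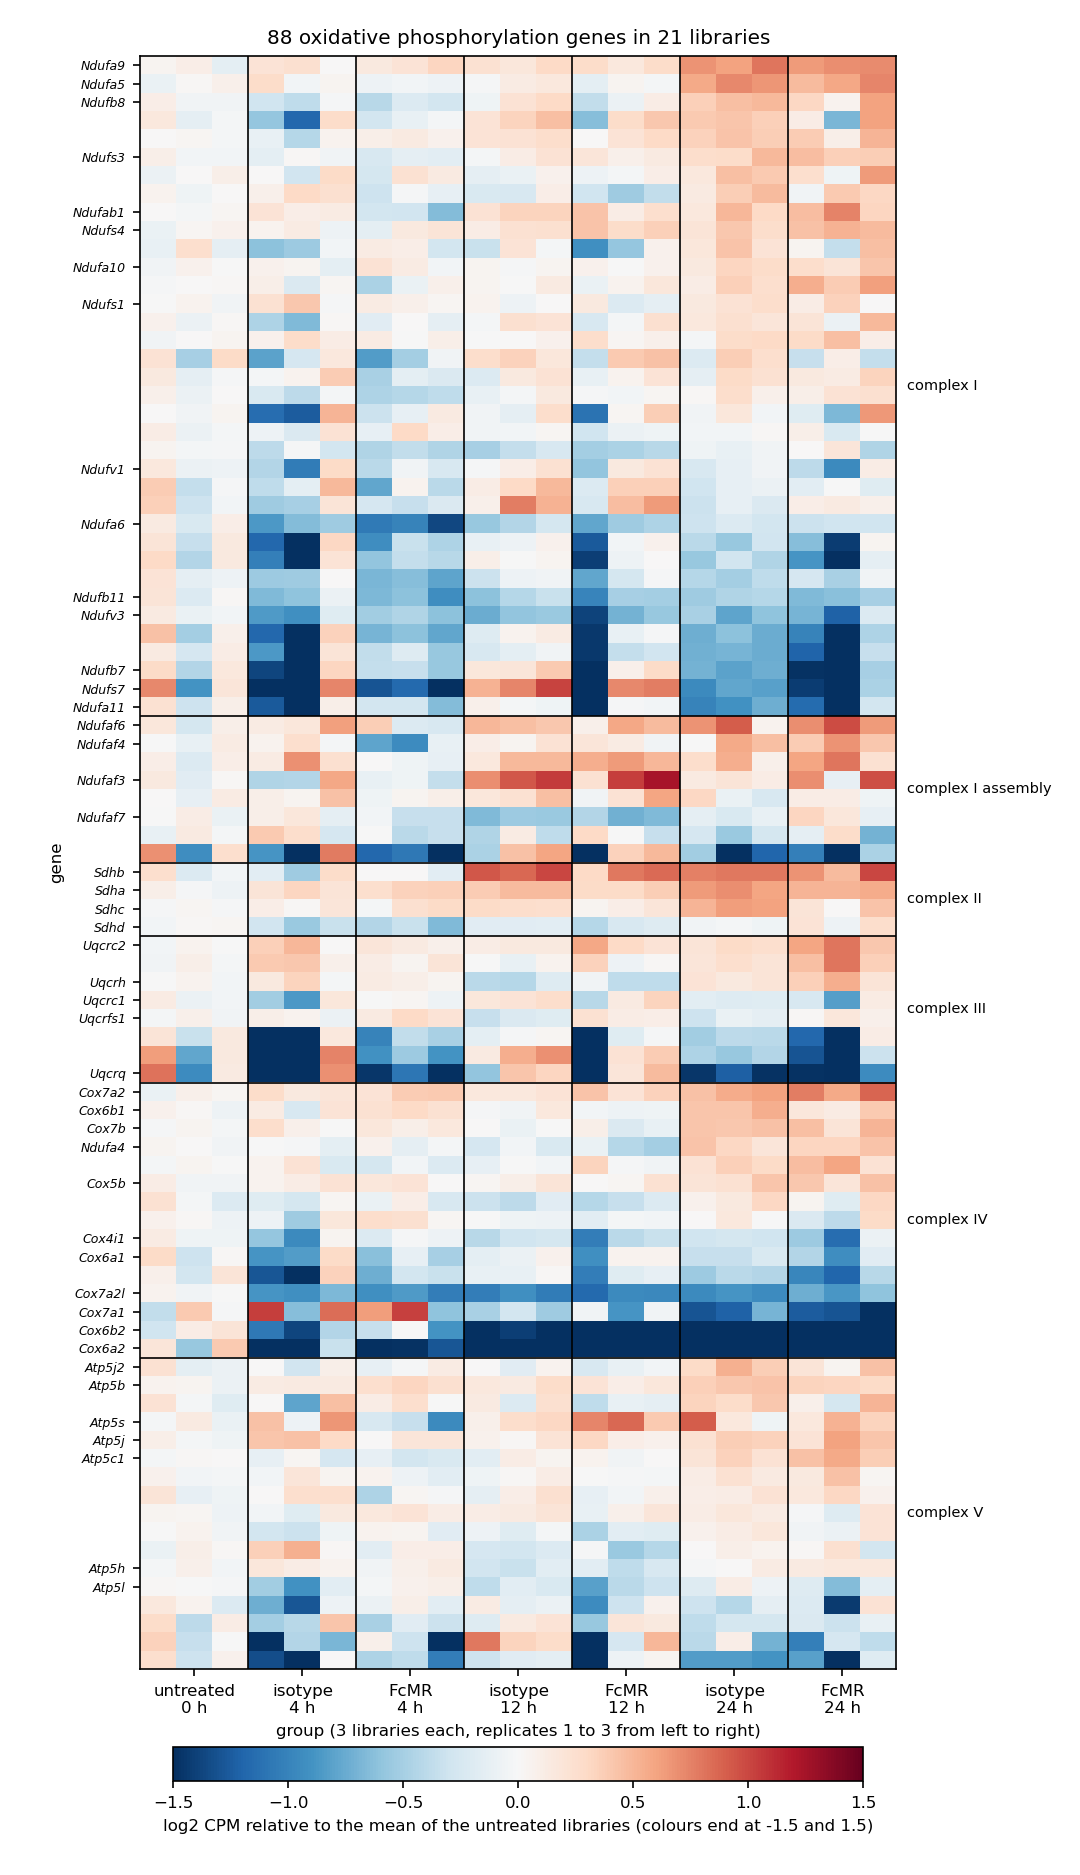
Log2 CPM of the 88 genes (rows, ordered within each complex by their level in isotype cells at 24 h) in the 21 libraries (columns, 3 per group), relative to the mean of the untreated libraries; colours end at -1.5 and 1.5 and most genes named in the text are labelled. The lower rows of complexes I, III and V change from library to library within the isotype 4 h, FcMR 12 h and FcMR 24 h groups, while Sdha, Sdhb, Sdhc, Cox7a2l, Cox6a2 and Cox6b2 differ between untreated cells and the later groups.

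Levels per kilobase of transcript in untreated cells ran over a wide range. The median was 53.0 CPM per kb for complex I subunits, 76.7 for complex II, 106 for complex III, 121 for complex IV and 146 for complex V, and 6.45 for the Ndufaf assembly factors. The highest member was Cox4i1, the common form of complex IV subunit 4, with 447 CPM per kb, followed by Atp5b with 329. Outside the Ndufaf factors the lowest members were Cox7a1, with 2.14, and Atp5s, counted in complex V by its symbol, with 2.42. Tissue-restricted forms of complex IV subunits were low beside their common counterparts: Cox6a2, the heart and muscle form of subunit 6a, had 19 CPM per kb and Cox6a1, its widely expressed form, had 191.

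Complex II gave the clearest pattern of a whole complex. Sdha, the flavoprotein subunit that oxidises succinate, Sdhb, the iron-sulfur subunit, and Sdhc, a membrane anchor, were all called higher in isotype than in untreated cells at 12 h and at 24 h. Sdhd, the other membrane anchor, was called lower at 4 h and not called at the later times. Complex II has only these 4 subunits, all nuclear, so 3 of its 4 genes rose. Of all genes 22% were called higher at 12 h and 21.3% at 24 h. The 12 h call of Sdhc was lost under 8 of 16 alternative settings, among them leaving out any 1 untreated library or isotype 12 h replicate 1.

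Sdha lies on chromosome 13 (GRCm38, 74322254 to 74350280, minus strand). Its CPM was 182, 170 and 163 in the 3 untreated libraries, 223, 238 and 238 in isotype at 12 h, and 268, 277 and 259 in isotype at 24 h. Every isotype library at 12 and 24 h was above every untreated one. The log2 difference from untreated was 0.24 at 4 h (SE 0.06, edgeR adjusted p = 0.00761), 0.44 at 12 h (adjusted p = 2.04e-05) and 0.64 at 24 h (adjusted p = 2.6e-07). The 4 h call was lost under 6 of the 16 settings, one of which left out isotype 4 h replicate 2, and the later calls under none. With FcMR the gene had 205, 218 and 220 CPM at 4 h, 210, 209 and 221 at 12 h, and 245, 243 and 253 at 24 h. The FcMR libraries lay just below the isotype ones at 12 and 24 h without overlap, but the differences of -0.13 and -0.12 did not pass the test (edgeR adjusted p = 0.212 and 0.226).

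Sdhb (chromosome 4, 140961203 to 140979193, plus strand) had the largest increase of the members called at 12 h. Untreated libraries held 78.9, 57.5 and 64.8 CPM, isotype libraries 127, 120 and 133 at 12 h and 113, 115 and 115 at 24 h. At 4 h the isotype libraries held 59.7, 45.8 and 80.2, which overlapped the untreated ones. The log2 difference from untreated was -0.11 at 4 h (SE 0.18), 0.92 at 12 h (SE 0.18, edgeR adjusted p = 0.000476) and 0.77 at 24 h (SE 0.18, adjusted p = 0.00211), a 1.89-fold and a 1.71-fold increase. With FcMR it held 81.6, 115 and 120 CPM at 12 h and 106, 92.4 and 133 at 24 h, and no FcMR comparison was called.

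Sdhc (chromosome 1, 171127165 to 171150603, minus strand) was the member of complex II in which FcMR and isotype parted. Its isotype libraries at 24 h held 111, 120 and 119 CPM, against 77.1, 79.9 and 77.2 in untreated cells, a log2 difference of 0.58 (SE 0.10, edgeR adjusted p = 9.65e-05). The FcMR libraries at 24 h held 88.9, 78.4 and 105, all below the isotype ones, and the difference from isotype was -0.37 (SE 0.10, adjusted p = 0.0105). Leaving out FcMR 24 h replicate 2, in which GC-rich members were low, or isotype 24 h replicate 2 ended this call, with the difference between -0.48 and -0.26 over all settings. The joint test over times did not call a change of the FcMR effect for Sdhc (adjusted p = 0.111). Sdhd (chromosome 9, 50596357 to 50603812, minus strand) held 126, 131 and 133 CPM in untreated cells and 106, 88.4 and 103 in isotype cells at 4 h, a log2 difference of -0.39 (SE 0.10, adjusted p = 0.00511), and 126, 127 and 124 at 24 h, where the difference was -0.05.

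The 250 bases before the RefSeq start of Sdhb are shown because this window holds the core of the motif of NRF1, a transcription factor known for respiratory chain genes, and because the gene rose most among the abundant members; Uqcrfs1 and Cox7a2l are given for comparison as members called in other directions. The sequences are RefSeq's for GRCm38.p6, 5′ to 3′ on the gene's strand, with the motif in capitals. RefSeq's starts differ from the ends of the GENCODE gene spans given here: the Sdhb window runs past the GENCODE start, the Uqcrfs1 window overlaps its GENCODE gene in part, and the Cox7a2l window lies inside it.
Sdhb, chr4:140961021-140961270: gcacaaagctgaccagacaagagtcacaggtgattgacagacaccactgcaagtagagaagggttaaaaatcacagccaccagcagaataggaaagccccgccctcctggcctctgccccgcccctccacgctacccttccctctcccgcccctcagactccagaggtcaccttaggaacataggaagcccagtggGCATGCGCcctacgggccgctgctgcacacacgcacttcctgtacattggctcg
Uqcrfs1, chr13:30545317-30545566: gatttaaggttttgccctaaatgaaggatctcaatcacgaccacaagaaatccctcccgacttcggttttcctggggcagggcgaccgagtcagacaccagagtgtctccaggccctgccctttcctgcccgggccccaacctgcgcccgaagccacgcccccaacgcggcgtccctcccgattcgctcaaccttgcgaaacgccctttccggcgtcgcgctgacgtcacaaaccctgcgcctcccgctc
Cox7a2l, chr17:83514334-83514583: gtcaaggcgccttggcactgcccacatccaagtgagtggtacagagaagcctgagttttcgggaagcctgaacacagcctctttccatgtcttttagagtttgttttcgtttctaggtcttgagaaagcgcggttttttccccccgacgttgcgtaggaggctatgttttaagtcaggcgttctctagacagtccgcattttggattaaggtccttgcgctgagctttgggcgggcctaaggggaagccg
The NRF1 core was searched as GCGCATGC and its reverse complement GCATGCGC, and the ETS core, bound by factors such as GABP, as CCGGAAG and CTTCCGG, in windows of 300 bases (250 before to 50 after the start). Windows were found by symbol for 72 of the 88 members. The NRF1 core was in 15.6% of the members' 77 windows, in 5.01% of the windows of genes tested and in 2.71% of all 32851 windows. The ETS core was in 23.4%, 17.5% and 8.86%. The 12 members with the NRF1 core included Sdhb, Ndufa6, Atp5l and Uqcrc1, and these did not share a direction: Sdhb was called higher in isotype cells, Ndufa6 and Atp5l lower, and Uqcrc1 was not called. A match is a stretch of letters, not a bound site.

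**Figure D4:**
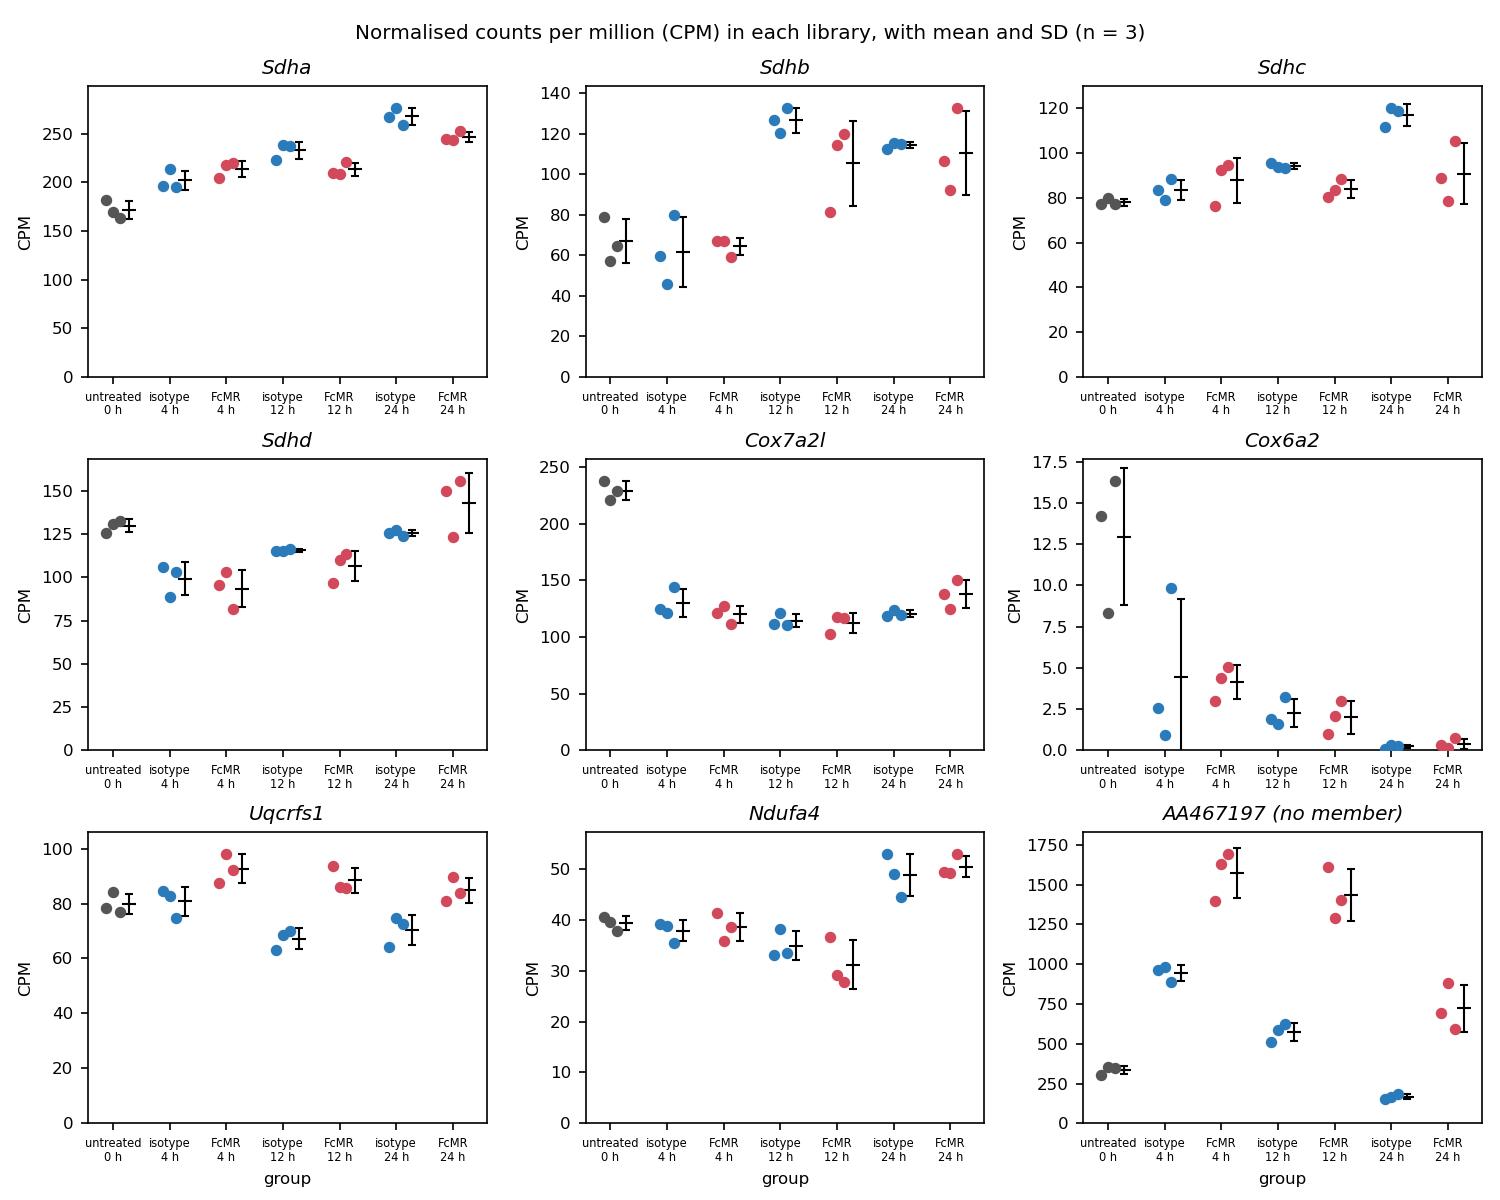
CPM in each of 3 libraries per group (points) with mean and SD (n = 3, lines to the right of the points) for 8 members and for AA467197, which is no member; grey is untreated, blue isotype and red FcMR, each vertical axis starts at 0, and the lower SD line of Cox6a2 in isotype cells at 4 h is cut off there. Sdha, Sdhb and Sdhc are higher at 24 h than at 0 h, Cox7a2l is lower in all treated groups, Uqcrfs1 is higher with FcMR than isotype at 12 and 24 h, and AA467197 is higher with FcMR at every time.

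Complex I, the largest set, had calls in both directions. In isotype cells at 24 h, 8 of the 36 subunits were called higher and 3 lower than in untreated cells, beside 21.3% and 20.9% of all genes. At 4 h 2 were called lower, beside 15.2% of all genes. At 12 h 1 was called higher and 4 lower, beside 22% and 19.6% of all genes. Those called higher included Ndufa9, a subunit near the junction of the arms of the complex and Ndufa5, an accessory subunit. Ndufa9 (chromosome 6, 126821721 to 126849136, minus strand) held 52.8, 55.1 and 46.4 CPM in untreated cells, 82.2, 78.3 and 89.3 in isotype and 80.1, 83.2 and 83.9 in FcMR cells at 24 h. Both treated groups were above the untreated libraries and they overlapped each other. The log2 difference of isotype from untreated was 0.69 (SE 0.08, edgeR adjusted p = 2.74e-06), and that of FcMR from isotype -0.01 (SE 0.08). Ndufa5 held 18.7, 20.2 and 21.2 CPM in untreated and 29.8, 33.0 and 31.8 in isotype cells at 24 h, a difference of 0.65 (SE 0.10, adjusted p = 2.96e-05). Others called higher at 24 h included Ndufb8, Ndufs3, Ndufab1, Ndufs4 and Ndufa10, with log2 differences of 0.25 to 0.43 (Ndufs3 shares 27.1% of its 75-base windows with a predicted gene, Gm12251).

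Ndufa6, an accessory subunit of the LYR family, went the other way. Its CPM was 53.8, 41.8 and 52.5 in untreated cells, 27.0, 31.2 and 33.8 in isotype and 23.4, 24.3 and 19 in FcMR cells at 4 h, and 39.4, 42.5 and 40.5 in isotype cells at 24 h. The 3 groups at 0 and 4 h did not overlap. The difference of isotype from untreated was -0.68 at 4 h (SE 0.12, edgeR adjusted p = 0.000299), -0.42 at 12 h (adjusted p = 0.00909) and -0.27 at 24 h (adjusted p = 0.082). At 4 h it was lower again with FcMR than with isotype, by -0.45 (SE 0.13, adjusted p = 0.0183), a call that was lost under 6 of 16 settings, among them leaving out FcMR 4 h replicate 3, isotype 4 h replicate 2 or isotype 4 h replicate 3. Ndufb11 and Ndufv3, also accessory subunits, were lower in isotype than untreated cells at 12 h (-0.46 and -0.63) and at 24 h (-0.48 and -0.63). Each of these 4 calls was lost when single libraries were left out, for Ndufv3 any 1 of the isotype or untreated libraries compared.

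Ndufab1 encodes the mitochondrial acyl carrier protein, which serves both complex I and the making of lipoic acid. It was the complex I member with the lowest adjusted p for FcMR. At 4 h it held 26.7, 24.9 and 25.3 CPM with isotype and 19.1, 19 and 14.7 with FcMR, which did not overlap. The log2 difference was -0.53 at 4 h (SE 0.13, edgeR adjusted p = 0.00741), -0.03 at 12 h and 0.20 at 24 h. Leaving out FcMR 4 h replicate 3 ended the 4 h call. Of its 75-base windows 10.9% also occur in other annotated genes, including the pseudogene Ndufab1-ps, so its count is partly shared. Core subunits of the catalytic arm did not pass in any pairwise comparison: Ndufs1 had 62.8 to 67.6 CPM in untreated cells, 65.3 to 82.9 in FcMR cells at 24 h and log2 differences from isotype of -0.13, -0.05 and -0.04 (SE 0.11 each), and Ndufv1, a GC-rich gene, had differences of 0.06, -0.14 and -0.22 with a larger SE of 0.28.

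The first time point depends on 1 library. Isotype 4 h replicate 3 held more GC-rich transcripts than the other 2. Over all genes, the level of the GC-richest less that of the GC-poorest (log2, relative to each gene's mean) was 0.65 in replicate 3. It was -0.84 in replicate 1 and -1.60, the lowest of all libraries, in replicate 2. The untreated libraries had 0.82, 0.05 and 0.48, so replicate 3 lay within their range and replicates 1 and 2 below it. This library and FcMR 12 h replicate 1 are also those whose title numbers stand out of the order of the groups. The same GC measure was -0.75 in FcMR 12 h replicate 1 and -0.52 to -0.19 in the FcMR libraries at 4 h. In FcMR 12 h replicates 2 and 3 and in isotype at 12 h it was 0.59 to 0.83. Along the title numbers it thus changed sign between these 2 libraries, near the step from 4 to 12 h. Its part in comparisons at these times was not tested beyond the offset for GC content. Whether the 2 libraries were exchanged or prepared apart was not tested. For AA467197, described below, isotype 4 h replicate 3 had 890 CPM, near the 963 and 981 of its group, and FcMR 12 h replicate 1 had 1609, beside 1288 and 1405. Without isotype 4 h replicate 3, 37 members in place of 9 were called between isotype and untreated cells at 4 h. Of the 37, 31 were lower, and 44.6% of all genes were called. This fit sets the 2 isotype libraries low in GC-rich transcripts against the untreated ones, and the part of GC content in these calls was not tested. The median was -0.25 over the members beside -0.03 over all genes. Among the 37 were 17 of the 36 complex I subunits, 16 of them lower, and these included Ndufs7, Ndufb7 and Ndufa11. FcMR against isotype at 4 h then gave 10 members, 7 higher and 3 lower, in place of 5, with 22.5% of all genes called. Leaving out FcMR 12 h replicate 1 as well gave 23 members in that comparison, with 28.3% of all genes called. With an offset for GC content, isotype against untreated at 4 h gave 14 members with all libraries kept and 44.1% of all genes called.

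The 8 Ndufaf genes encode factors that help to build complex I and are not part of the finished enzyme. At 4 h all 8 lay lower with FcMR than with isotype, with a median difference of -0.36. Of all 13468 genes 7766 lay lower there, with a median of -0.07 over all genes. Without isotype 4 h replicate 3 the median of the 8 was -0.25, beside -0.01 over all genes. With all libraries kept 17.7% of all genes were called, and of the 8 only Ndufaf4. Its CPM was 8.62, 9.92 and 8.11 with isotype and 4.75, 4.25 and 7.64 with FcMR, a difference of -0.74 (SE 0.20, edgeR adjusted p = 0.0131). At 24 h 7 of the 8 lay higher with FcMR, none of them called. Of all 13468 genes 6837 lay higher there, and 20.9% of all genes were called. Ndufaf4 was not called when FcMR 4 h replicate 1 or 2 or isotype 4 h replicate 2 was left out. Ndufaf3 was higher at 12 h in isotype (13.2, 15.5 and 16.9 CPM) than in untreated cells (9.04, 7.18 and 8.26), by 0.91 (SE 0.29, adjusted p = 0.0177), but the gene overlaps another on the opposite strand. Ndufaf7, a methyltransferase that acts in complex I assembly, was lower there, with 5.83, 6.31 and 6.28 CPM against 9.23, 10 and 8.66, by -0.60 (SE 0.13, adjusted p = 0.00139), which held under all 16 settings. Ndufaf6 was called higher at 24 h, by 0.63 (adjusted p = 0.0497), a call lost under 12 of 16 settings.

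Assembly factors whose names the rule does not take were also compared. With FcMR at 4 h, where 8.62% of all genes were called higher and 9.13% lower, 4 of 10 further complex I factors were called lower, and of 23 complex IV factors 5 were called lower and 2 higher. Later the complex I factors had 0 calls at 12 h and 1 lower at 24 h, and the complex IV factors 1 higher at 12 h and 3 higher at 24 h, where 16.1% and 20.9% of all genes were called. None of the 6 complex III factors was called: all 6 lay lower at 4 h, 3 at 12 h and 1 at 24 h. Of all 13468 genes 7766, 7015 and 6616 lay lower at those times. Tmem126b, a membrane factor of complex I assembly, held 12.4, 17.1 and 13 CPM with isotype and 8.99, 6.96 and 6.89 with FcMR, a log2 difference of -0.88 (SE 0.14, edgeR adjusted p = 0.000185) that held under all 16 settings. It was also higher in isotype cells at 12 and 24 h than in untreated ones, by 0.96 and 1.18. Sdhaf1, which helps to insert iron-sulfur clusters into Sdhb, held 10.9, 9.92 and 11.5 CPM with isotype and 7.22, 6.70 and 7.08 with FcMR at 4 h, a difference of -0.63 (SE 0.12, adjusted p = 0.000922). Coa6, a copper-handling factor of complex IV, was lower by -1.0 (adjusted p = 0.0324). Nubpl and Tmem186, both of complex I assembly, were lower by -0.71 and -0.53. Sco1, another copper factor, was higher by 0.55 (adjusted p = 0.0447). The calls of Coa6 and Sco1 were lost under 8 and 9 of 16 settings.

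Complex III held the 1 member that FcMR moved in the same way at 2 times. Uqcrfs1, the Rieske iron-sulfur protein that passes electrons on to cytochrome c1, lies on chromosome 13 (30540308 to 30545362, minus strand). With isotype it held 63.0, 68.5 and 70.1 CPM at 12 h and 64.1, 74.6 and 72.5 at 24 h. With FcMR it held 93.5, 86.2 and 85.5 at 12 h and 80.8, 89.6 and 84.0 at 24 h. Untreated cells had 78.3, 84.1 and 77.1. Every FcMR library was above every isotype library of its time, at 4 h as well, where the values were 87.5, 98.0 and 92.2 against 84.6, 82.8 and 74.8. The log2 difference was 0.20 at 4 h (SE 0.08, edgeR adjusted p = 0.0983), 0.40 at 12 h (SE 0.08, adjusted p = 0.00163) and 0.27 at 24 h (SE 0.08, adjusted p = 0.0209), and the joint test found no change of the effect over time (adjusted p = 0.493).

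The 12 h call of Uqcrfs1 held under all 16 settings, with a range of 0.31 to 0.43. The 24 h call was lost under 6, among them leaving out FcMR 24 h replicate 2 or isotype 24 h replicate 1. Isotype cells at 12 h were also lower than untreated ones, by -0.25 (adjusted p = 0.0176). The FcMR libraries at 12 h lay above the untreated ones, a difference that was not tested. Its window, printed above, holds neither motif. Uqcrc2, a core protein of the same complex, was called at 24 h, with 168, 196 and 148 CPM against 128, 137 and 133 and a difference of 0.36 (SE 0.12, adjusted p = 0.0341), but FcMR 24 h replicate 2 was the highest of these and the call was lost without any of the 5 libraries FcMR 24 h replicate 1 or 2 or isotype 24 h replicates 1 to 3. Uqcrc1, its partner, did not follow: its FcMR libraries at 24 h held 89.8, 60 and 116 CPM, on both sides of the isotype values of 94.9, 92.6 and 93.8. Uqcrh, the hinge protein, fell at 12 h in isotype cells by 0.34 (adjusted p = 0.018). The 8 genes of the complex had no call at 24 h against untreated cells, where 42.2% of all genes were called.

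Complex IV had no member called between FcMR and isotype at any time, where 17.7%, 16.1% and 20.9% of all genes were called by the same edgeR test. At an unadjusted p under 0.05 the 88 members together had 14, 2 and 10 at 4, 12 and 24 h. The shares of all genes at that threshold were 30.5%, 26.6% and 31.3%. Without isotype 4 h replicate 3, Cox6b1, Cox6c and Cox7c were called higher with FcMR at 4 h, where 22.5% of all genes were called. Against untreated cells Cox6a2 and Cox6b2, of complex IV, had the largest differences of the members called. At 24 h 5 of the 15 complex IV genes were called higher and 4 lower in isotype cells. Of all genes 21.3% were called higher there and 20.9% lower.

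Cox7a2l, also called SCAF1 or COX7RP, is a relative of subunit 7a known for joining complexes III and IV into supercomplexes. It lies on chromosome 17 (83501918 to 83517330, minus strand). Untreated libraries held 238, 221 and 229 CPM. At 4 h the isotype libraries held 124, 121 and 144 and the FcMR libraries 121, 127 and 111. At 12 h they held 111, 121 and 111 with isotype and 102, 118 and 117 with FcMR. At 24 h they held 118, 124 and 119 with isotype and 138, 125 and 150 with FcMR. All 18 treated libraries lay below all 3 untreated ones. Isotype differed from untreated by -0.82 at 4 h (SE 0.09, edgeR adjusted p = 7.52e-07), -1.0 at 12 h (adjusted p = 4.37e-08) and -0.93 at 24 h (adjusted p = 1.26e-07), a 1.76-fold, 2.0-fold and 1.90-fold lower level. These calls held under all 16 settings. FcMR differed from isotype by -0.11, -0.02 and 0.19 (SE 0.09 each), none called. The gene shares 13.4% of its 75-base windows with a predicted gene, Gm6969.

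Cox6a2 (chromosome 7, 128205435 to 128206387, minus strand) showed the steepest fall of any member. It held 14.2, 8.33 and 16.3 CPM in untreated cells, 2.59, 0.90 and 9.85 in isotype cells at 4 h, 1.91, 1.61 and 3.23 at 12 h, and 0.098, 0.32 and 0.26 at 24 h. The 24 h values stand for 1, 3 and 2 counts, against 146, 181 and 200 in untreated libraries. Pooled and set against library totals, the untreated level was 56.5 times that of isotype cells at 24 h (95% exact interval 25.8 to 155, counting error only, without TMM scaling). The test gave adjusted p = 0.00203 at 12 h and 1.56e-05 at 24 h (edgeR), and at 4 h 0.0486, a call lost under 6 of 16 settings. FcMR libraries at 24 h held 3, 4 and 6 counts, at or near the floor of 3 counts, so no fold between the treated groups is given. At 12 h they held 0.95, 2.10 and 2.96 CPM, which overlapped isotype.

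Cox6b2, known as a testis form of subunit 6b, fell beside it. It went from 2.04, 2.76 and 2.94 CPM in untreated cells to 0.73, 0.88 and 0.67 at 12 h and 0.20, 0.43 and 0.64 at 24 h, a log2 difference of -1.81 (SE 0.35, edgeR adjusted p = 0.000381) and -2.64 (SE 0.40, adjusted p = 3.82e-05). Cox7a1, the heart and muscle form of subunit 7a, was lower at 24 h by -1.36 (SE 0.52, adjusted p = 0.0443), a call that 14 of 15 other settings did not give. The sums of granulocyte and mast cell markers given above were also lower in isotype cells at 24 h than in untreated ones. Of the dendritic cell list, Cd209a and Zbtb46 were called lower there, Flt3 and Ccr7 higher and Itgax was not called. The part of these cells in the fall of Cox6a2 and Cox6b2 was not tested. Cox6a2 overlaps a gene on the opposite strand, as do 31 of the 88 members, and reads of such a pair cannot be told apart where the counting uses no strand.

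Of the widely expressed forms, Cox6b1 and Cox7a2 did not fall with them. Cox6b1 held 144, 140 and 131 CPM in untreated and 184, 185 and 202 in isotype cells at 24 h, a difference of 0.46 (SE 0.10, edgeR adjusted p = 0.00124). Cox7a2, the common form of subunit 7a, held 73.7, 83.6 and 81.0 and then 107, 116 and 121, a difference of 0.53 (SE 0.09, adjusted p = 9.32e-05). Cox7b, Ndufa4 and Cox5b were also called higher at 24 h, by 0.42, 0.31 and 0.28. Cox6a1 and Cox4i1, which are GC-rich, differed by -0.32 and -0.29 (SE 0.24 for Cox4i1), neither called, which leaves their direction undecided. Cox4i1 had 322, 283 and 283 CPM in untreated cells and 203, 133 and 277 in FcMR cells at 24 h, the low value being FcMR 24 h replicate 2. Cox4i2, the form known to be induced in low oxygen, had 0 to 4 counts in each library.

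**Figure D5:**
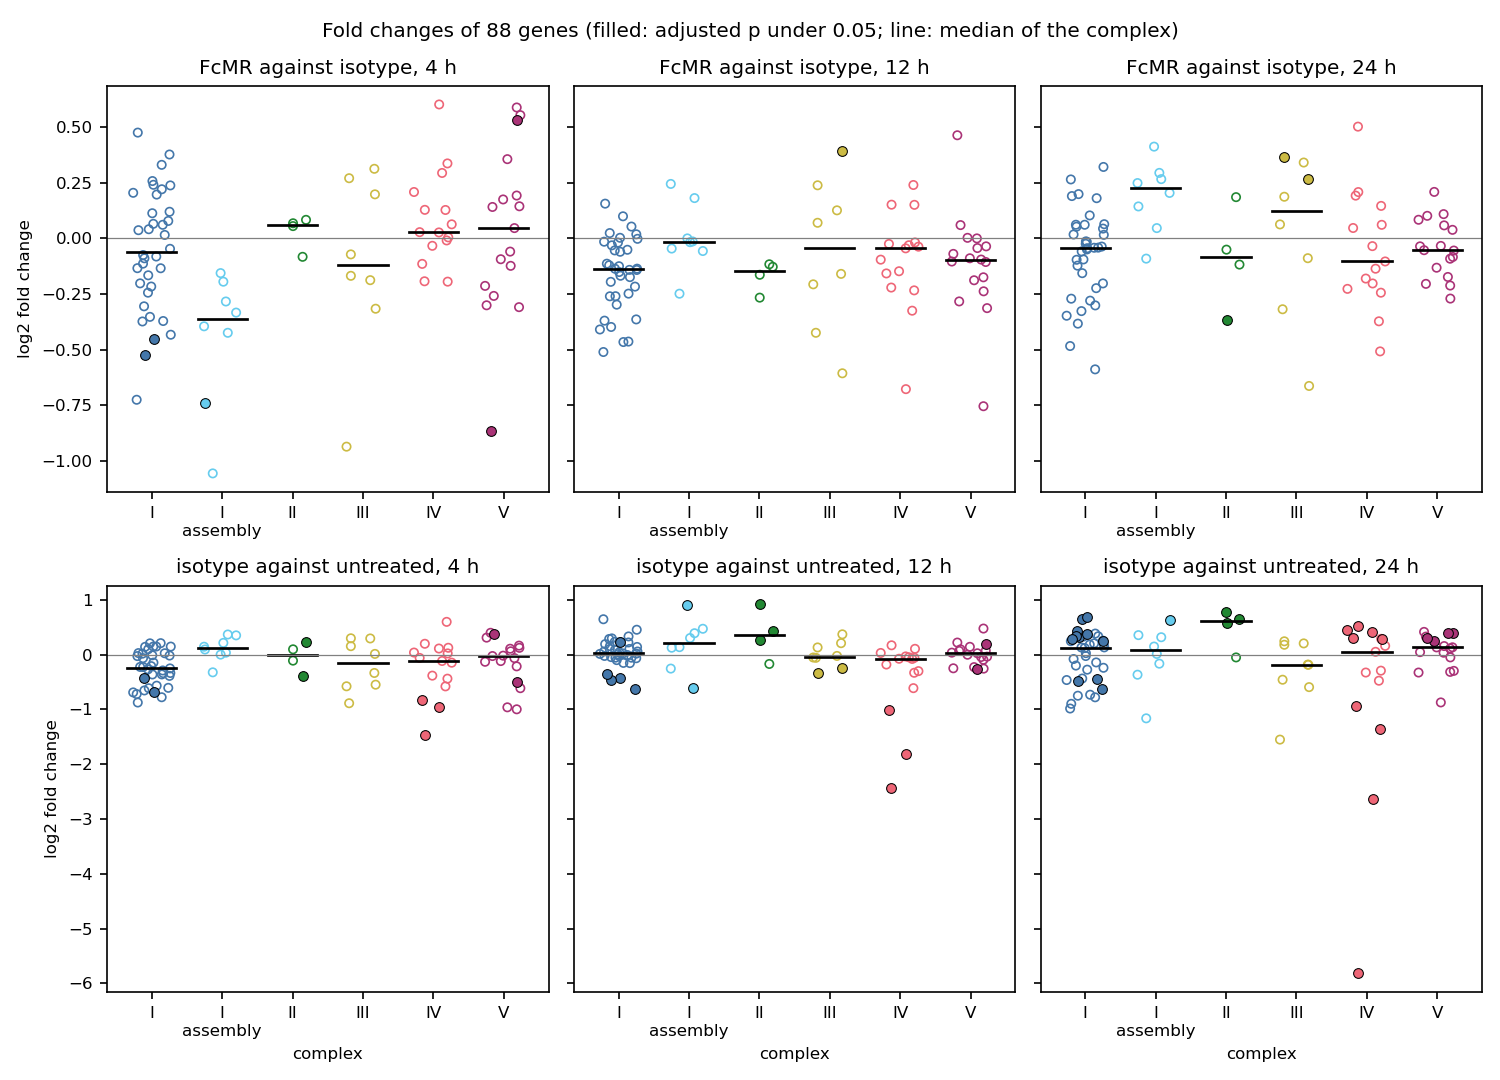
Log2 fold change (vertical axis, a different range in each row of panels) of each of the 88 genes by complex (horizontal axis) in 6 comparisons; filled points were called at adjusted p under 0.05 and lines are the median of the complex. Complex II lies highest in isotype against untreated at 24 h, with a median of 0.61, and the lowest point there is Cox6a2.

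Ndufa4 has a paralog that is no member by its symbol and whose differences between FcMR and isotype were larger than those of any member called in those comparisons at 12 and 24 h. AA467197, also called Nmes1 or C15orf48, encodes a small protein of the same family that is known to take the place of NDUFA4 in complex IV in inflamed cells. It lies on chromosome 2 (122636986 to 122641191, plus strand). In untreated cells it held 307, 353 and 347 CPM. With isotype it held 963, 981 and 890 at 4 h, 510, 588 and 625 at 12 h and 151, 168 and 185 at 24 h. With FcMR it held 1398, 1631 and 1692 at 4 h, 1609, 1288 and 1405 at 12 h, and 696, 880 and 592 at 24 h. The groups did not overlap at any time. FcMR was above isotype by 0.74 at 4 h (SE 0.13, edgeR adjusted p = 0.000738), 1.32 at 12 h (adjusted p = 1.46e-06) and 2.11 at 24 h (adjusted p = 4.05e-09), a 1.67-fold, 2.50-fold and 4.31-fold higher level, under all 16 settings.

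Isotype cells themselves differed from untreated by 1.49 at 4 h and 0.78 at 12 h, and by -1.0 at 24 h, all called. Ndufa4 moved little beside it: 40.6, 39.6 and 37.8 CPM in untreated cells, 52.9, 48.9 and 44.5 with isotype and 49.3, 49.1 and 52.9 with FcMR at 24 h. Its FcMR differences were 0.03, -0.16 and 0.05 (SE 0.10 each), none called. Per kilobase of transcript the paralog stood at 488 CPM per kb and Ndufa4 at 81.2 in untreated cells, and at 1052 for the paralog in FcMR cells at 24 h. Ndufa4l2, a further relative, had 0 to 13 counts in each library. Lonp1, a protease known to degrade COX4I1, was not called in any of the 6 comparisons. The 250 bases before the RefSeq start of AA467197 are printed to set beside the member windows, and hold neither motif. They lie inside the GENCODE gene span given above, which starts further upstream.
AA467197, chr2:122637637-122637886: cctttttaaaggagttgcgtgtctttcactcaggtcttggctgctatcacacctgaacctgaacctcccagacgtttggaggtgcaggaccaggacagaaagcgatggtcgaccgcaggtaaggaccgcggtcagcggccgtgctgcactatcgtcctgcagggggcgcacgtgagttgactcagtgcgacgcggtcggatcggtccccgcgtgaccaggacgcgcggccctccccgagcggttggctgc

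Complex V, ATP synthase, had 2 of 17 members called at 4 h between FcMR and isotype and none later. Of all genes 17.7%, 16.1% and 20.9% were called at 4, 12 and 24 h. Atp5l encodes subunit g, which helps the enzyme to dimerise. It held 69.4, 52.9 and 89.3 CPM with isotype and 97.3, 104 and 105 with FcMR at 4 h, which did not overlap, while untreated cells had 98.7 to 101. The difference between FcMR and isotype was 0.53 (SE 0.17, edgeR adjusted p = 0.0341), and that between isotype and untreated -0.49 (adjusted p = 0.0282). Of its 75-base windows 63.4% occur in other annotated genes, the largest share among members, so the value is uncertain. The FcMR call was lost without FcMR 4 h replicate 2 or isotype 4 h replicate 1 or 2. Atp5s, a low-count gene coding for coupling factor B, was lower with FcMR at 4 h, at 1.91, 1.77 and 1.12 CPM against 3.16, 2.16 and 3.71, by -0.87 (SE 0.28, adjusted p = 0.0371), a call lost under 10 of 16 settings.

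Against untreated cells at 24 h 4 of 17 complex V members were called higher, namely Atp5b, Atp5j2, Atp5j and Atp5c1, and none lower, where 21.3% of all genes were called higher. Over all 17, 12 lay higher and 5 lower, down to -0.87. Of all 13468 genes 6418 lay higher and 7040 lower. Atp5j, coupling factor 6, was already higher at 4 h by 0.39 (SE 0.10, edgeR adjusted p = 0.00525). Atp5h, subunit d of the peripheral stalk, was lower at 12 h by -0.26 (SE 0.08, adjusted p = 0.0109), and shares 36.5% of its 75-base windows with a predicted gene, Gm10250. Atp5b held 655, 647 and 591 CPM in untreated and 808, 837 and 849 in isotype cells at 24 h, a difference of 0.40 (SE 0.06, edgeR adjusted p = 4.36e-05), and 796, 787 and 770 with FcMR, a difference from isotype of -0.08 (SE 0.06). With the least spread of all members, its differences have the smallest SE given here. At 4 h, its FcMR libraries (750, 790 and 744) were above the isotype ones (686, 689 and 690), but the difference of 0.15 did not pass (adjusted p = 0.116).

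The 13 subunits encoded by mitochondrial DNA belong to complexes I, III, IV and V and are outside the rule. None was called between FcMR and isotype at any time, with median differences of -0.09, -0.06 and 0.02. Against untreated cells all 13 lay higher in isotype cells at 4 h, with a median of 0.34. Of all 13468 genes 6724 lay higher there. In isotype 4 h replicates 1 to 3 the median of the 13 was 0.22, 0.64 and 0.07 relative to the untreated mean. GC-rich members lay lowest of this group in replicate 2 and highest in replicate 3, and the part of GC content was not tested. Of the 13 only mt-Co3, a core subunit of complex IV, was called at 4 h and at 24 h. The shares of all genes called were 35.6% and 42.2%. Among the 7 carriers and dehydrogenases that feed the chain, Gpd2, the mitochondrial glycerol-3-phosphate dehydrogenase, which reduces ubiquinone, was the 1 called by FcMR. It held 121, 141 and 146 CPM in untreated cells. With isotype it had 96.8, 115 and 86.2 at 4 h, 83.7, 88.6 and 78.4 at 12 h and 51.5, 55.1 and 54.8 at 24 h. With FcMR it had 165, 158 and 167, then 171, 163 and 152, then 99.6, 123 and 106. No FcMR library overlapped isotype, and the differences were 0.72, 0.96 and 1.03 (SE 0.11, 0.10 and 0.11, edgeR adjusted p = 0.000113, 3.78e-06 and 1.2e-06), called under all 16 settings.

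Of 13 tested regulators of respiratory chain genes, 1 was called lower with FcMR at 4 h (Twnk, the mitochondrial DNA helicase, by -0.70) and 1 higher at 12 h (Tfb1m, a mitochondrial rRNA methyltransferase, by 0.54). Of all genes 17.7% and 16.1% were called at those times. Between isotype and untreated cells 5, 5 and 4 of the 13 were called at 4, 12 and 24 h, beside 35.6%, 41.6% and 42.2% of all genes. Against untreated cells, Tfb1m was higher in isotype cells at 4 h by 0.85 and at 12 h by 0.61. Cycs, which encodes cytochrome c, was higher in isotype cells at 12 h by 0.49. Etfb, of the electron transfer flavoprotein, was lower at all 3 times, by -1.26, -1.13 and -1.48.

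The complexes can also be followed by the median over their members. Relative to the untreated mean (log2 CPM, mean of the library medians with SD, n = 3), complex II stood at 0.36 ± 0.02 with isotype and 0.21 ± 0.06 with FcMR at 12 h, and at 0.61 ± 0.04 and 0.37 ± 0.13 at 24 h. Its FcMR libraries at 24 h (0.36, 0.24 and 0.50) were all below the isotype ones (0.58, 0.66 and 0.60). Complex V stood at 0.11 ± 0.01 and 0.11 ± 0.09 at 24 h, and complex I at 0.10 ± 0.14 and 0.05 ± 0.08. Over all 88 members the values at 24 h were 0.08 ± 0.07 with isotype and 0.10 ± 0.09 with FcMR. These summaries carry no test, since members of a complex are not replicates of a condition.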

How the data were processed

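RNA from 21 libraries was sequenced as 75-base single-end reads. Per the submitters' processing notes, the tools were CASAVA 1.8.2, kallisto 0.44.0 and DESeq2, with build mm10 (GRCm38). The authors deposited a table of estimated counts per gene, used for every result, and a normalized signal table, used only to obtain the authors' scaling factors. Here estimated counts, whole numbers as deposited, were scaled by TMM and filtered (filterByExpr, minimum count 10). One fit of all 21 libraries was made with edgeR 4.0.16 (quasi-likelihood, R 4.3.3, limma 3.58.1). P-values were adjusted by Benjamini-Hochberg over 13468 genes and called under 0.05. Log2 CPM used a prior count of 2. Alternatives were DESeq2 1.42.0, other scalings, no filter, offsets for GC and length (mgcv 1.9.3), a replicate block and leaving out libraries. The fit was tested on simulated data. Positions and lengths are from GENCODE M21, promoters from RefSeq. The members and gene lists were chosen with earlier results of these data known. Named genes were, for each comparison and complex, the 2 called members at either end of the fold changes, a set listed by symbol, and up to 3 called genes of each related list for FcMR. Others were chosen after their values were seen. A floor of 3 counts equals 0.045 to 0.54 CPM. A result for a further gene is not reported here.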

Additional observations from a re-analysis of the deposited data

Results flagged for a closer look

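The effect of FcMR differed between 4, 12 and 24 h, by the joint test over times in edgeR, for 2 of the 88 members, where 11% of all genes were called. For Ndufab1 the adjusted p was 0.0283, with log2 differences from isotype of -0.53, -0.03 and 0.20. For Atp5l it was 0.0445, with differences of 0.53, -0.24 and -0.27. Among related genes it differed for AA467197 (adjusted p = 0.000351), whose difference from isotype was 0.74 at 4 h and 2.11 at 24 h.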

How the results depend on the processing

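No called result of a named gene changed direction. Values that were not called changed sign under some settings, among them Cox4i1 for isotype at 24 h (-0.32 to 0.07). The counts of members called that moved by more than 1.5 times are given by setting, and the cause was not tested. The share of all genes called moved too: for FcMR at 4 h it was 7.61% without the filter, 7.38% fitting only the groups compared, 28.6% with GC and 28.3% without the 2 libraries below, for isotype at 4 h 48.6% without them, at 24 h 56.7% fitting only the groups compared, and for any difference 86.1% without the 2 libraries. For FcMR against isotype at 4 h (5 members) there were 2 without the expression filter, 8 by DESeq2, 11 with the GC offset, 15 with GC and length, 0 fitting only the groups compared, 13 with the replicate block and GC offset, and 23 without the 2 libraries FcMR 12 h replicate 1 and isotype 4 h replicate 3. At 12 h (1) there were 2 with GC, 3 with GC and length, 3 with the replicate block and GC, and 2 without those libraries. At 24 h (3) there were 1 without the filter, 0 with the authors' factors, 8 with GC and 6 with GC and length. Fitting only the groups compared gave 0 there, and the replicate block with GC 8. The shares of all genes were 20.9% in the main fit and, in the same order, 10.2%, 17.3%, 29.7%, 29.8%, 16.3% and 30.6%. For isotype against untreated at 4 h (9) there were 14 with GC, 15 with GC and length and 4 with only the groups compared. The replicate block with GC gave 15, and leaving out those 2 libraries 40. The shares of all genes were 35.6% in the main fit and, in the same order, 44.1%, 44.1%, 23.1%, 45.3% and 48.6%. At 12 h (17) there were 11 without the filter, where the share of all genes fell from 41.6% to 22.3%. At 24 h (28) there were 50 fitting only the groups compared. For the change of the FcMR effect over time (2) there were 1 with RLE factors, 1 without the filter, 7 by DESeq2, 10 with GC, 11 with GC and length, 1 with only the groups compared, 10 with the replicate block and GC, and 7 without those libraries. Any difference (49) gave 75 without them.

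Leaving out 1 library gave 2 to 10, 1 to 1 and 1 to 5 members for FcMR at 4, 12 and 24 h, 5 to 37, 10 to 13 and 15 to 25 for isotype, 0 to 6 over time and 46 to 65 for any difference. Libraries that moved a count by over 1.5 times included isotype 4 h replicate 3 (10 and 37), FcMR 24 h replicate 3 (5), isotype 24 h replicate 1 or 2 (1 each for FcMR at 24 h), FcMR 4 h replicate 2 or 3 and isotype 4 h replicate 2 (2 each), untreated replicate 2 at 12 h (10) and untreated replicate 3 at 24 h (15). The median over members for FcMR at 4 h was 0.07 without the filter and 0.11 without the 2 libraries. The replicate block alone gave 6, 1, 3, 11, 17 and 29 members in the 6 comparisons, 2 over time and 51 for any difference. Same-numbered libraries did not deviate together (mean correlations -0.07 to 0.11), so the numbers were not taken as pairs. Depth limits low genes: Cox6a2 at 24 h rests on 1 to 6 counts per library.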
